A study of Mus musculus with 46 samples.

Results

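This account follows 10 genes of death receptor signaling, the ligands Fasl, Tnfsf10, Tnf and Lta, the receptors Fas, Tnfrsf10b, Tnfrsf1a and Tnfrsf1b, and the initiator caspase Casp8 with its inhibitor Cflar, in cultured MC-38 cells and MC-38 tumors. The 10 genes were chosen by symbol from the 48795 genes of the deposited expression table, in a selection made with earlier results of these data known. Each was present once, and their levels are given in all 8 groups. MC-38 is a mouse colon carcinoma line that grows in C57BL/6 mice with an intact immune system. The experiment asked how blocking PD-1, an inhibitory receptor of T cells, with an antibody or deleting its gene Pdcd1 in adult mice changed the RNA of the tumor.

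Death ligands are cell surface or secreted proteins of the TNF superfamily, made mainly by activated T cells, NK cells and myeloid cells. When they bind receptors that carry a death domain on a target cell, the receptors assemble adaptors that bring in and activate caspase-8, which can start apoptosis. The same receptors can also drive NF-kappaB signaling, and cytotoxic T cells in tumors use Fas ligand and TRAIL beside perforin and granzymes.

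RNA was sequenced from 46 samples. The 3 MC-38 cultures and the 3 baseline tumors, taken from wild-type hosts, received no treatment. Wild-type tumor-bearing mice received 1 or 2 doses of an isotype antibody (n = 5 per dose group) or of the anti-mouse PD-1 antibody muDX400, abbreviated PD-1 Ab, at 5 mg/kg (n = 5 per dose group), with label time points of 4 days and 8 days, which the methods give as days 11 and 15 after implant. A separate set of 10 tumors labelled PD-1cKO and 10 tumors labelled WT came from littermates, both given tamoxifen at 40 mg/kg on 5 consecutive days. The labels and the study's main RNA figure place this set at 28 days, and the methods of the RNA work at day 22. In PD-1cKO mice loxP sites flank exons 2 and 3 of Pdcd1, and Cre is a tamoxifen-activated form expressed from Rosa26, so deletion was not limited to T cells. Hosts were female C57BL/6NTac mice of 8 to 10 weeks with a tumor implanted under the skin of the right flank. The labels do not state whether each tumor came from its own mouse. A supplementary heat map legend of the study describes its rows as individual animals. The p-values measure the spread between these samples.

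Gene-level Pdcd1 was 5.05 FPKM at the lowest, 8.29 at the median and 19.9 at the highest in the tumors labelled PD-1cKO, against 1.71, 3.01 and 7.02 in WT. The floxed exons are only a part of the transcript, so this value does not check the deletion, and PD-1cKO below means the tumors with that label. FPKM scale the fragments of a gene by the length of its transcript and by the total of the library. Read totals per sample were not used here, so the depth of each sample is unknown. The isotype 1 dose replicate 1 held 54.6% of its FPKM in mitochondrial genes, against 3.45% to 4.31% in the rest of its group. Short noncoding RNAs held 30.2% to 66.5% of FPKM in the PD-1cKO and WT set and at most 0.082% elsewhere, so levels of this set cannot be read on one scale with the others. Cultures and tumors, the dose groups and the PD-1cKO set also carry sample identifiers from separate runs, and any effect of those runs cannot be told apart from the contrast of cultures with tumors.

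T cell markers were at or near 0 in cultured MC-38 cells. Of 9 such markers, 5 were listed at 0 in the 3 cultures and none reached 0.1 FPKM. Epithelial markers, keratins with Epcam and Cdh1, were also near 0, with a summed level of 0.616 to 0.742 FPKM over 6 genes. They were at most weakly present in the labelled colon carcinoma line. In tumors the T cell markers summed to 9.91 to 20.5 FPKM with isotype 2 doses and 41.4 to 175 FPKM with PD-1 Ab 2 doses. In bulk tissue, fewer cells of a type and less RNA per cell cannot be told apart.

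The 10 genes lie on GRCm38 at chr1:161780689-161788495 (Fasl), chr3:27317028-27342427 (Tnfsf10), chr17:35199381-35202007 (Tnf), chr17:35203165-35205351 (Lta), chr19:34290666-34327772 (Fas), chr14:69767472-69784411 (Tnfrsf10b), chr6:125349362-125362484 (Tnfrsf1a), chr4:145213463-145246870 (Tnfrsf1b), chr1:58795374-58847503 (Casp8) and chr1:58711508-58758884 (Cflar). Each spans the whole gene, and all 10 are annotated as protein coding. Tnf and Lta are neighbours 1157 bases apart, and Cflar lies 36489 bases from Casp8. Of the 50-base stretches of each gene's exons, 7.04% in Cflar, 5.80% in Tnfrsf10b, 4.37% in Casp8 and 0.292% in Tnfsf10 also occur in other genes, and none in the other 6.

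The 250 bases upstream of the RefSeq transcript start were available for 9 of the 10 genes. They were searched on both strands for 4 short motifs of factors downstream of T cell receptor, interferon and TNF signaling. These were the GAS letters TTCNNNGAA, found in 7.02% of 32851 mouse windows of this length, the ISRE core GAAANNGAAA (2.98%), the kappaB letters GGGANNNNCC (17.6%) and the NFAT core GGAAAA (20.4%). The windows of 4 genes are shown, the ligands Fasl and Tnfsf10 and the receptors Fas and Tnfrsf1b, because their levels carry the comparisons that follow. Sequences are RefSeq GRCm38.p6, written 5′ to 3′ in the direction of the gene, and capitals mark the motif matches.
Fasl (chr1:161788496-161788745, minus strand): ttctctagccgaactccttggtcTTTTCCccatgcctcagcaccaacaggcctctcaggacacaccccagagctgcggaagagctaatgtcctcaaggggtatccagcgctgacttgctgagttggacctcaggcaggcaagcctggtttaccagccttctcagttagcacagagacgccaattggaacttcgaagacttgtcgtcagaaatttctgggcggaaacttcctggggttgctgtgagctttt
Tnfsf10 (chr3:27316827-27317076, plus strand): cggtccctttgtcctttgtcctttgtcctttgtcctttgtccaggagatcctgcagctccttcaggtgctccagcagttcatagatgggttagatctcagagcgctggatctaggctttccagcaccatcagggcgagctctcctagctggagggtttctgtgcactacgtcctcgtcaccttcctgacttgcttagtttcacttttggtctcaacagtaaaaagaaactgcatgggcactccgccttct
Fas (chr19:34290409-34290658, plus strand): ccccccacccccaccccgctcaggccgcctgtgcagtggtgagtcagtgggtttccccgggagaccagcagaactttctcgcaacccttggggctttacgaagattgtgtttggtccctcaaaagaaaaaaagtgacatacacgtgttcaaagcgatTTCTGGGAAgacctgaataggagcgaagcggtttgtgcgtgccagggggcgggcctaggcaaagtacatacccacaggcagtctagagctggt
Tnfrsf1b (chr4:145246871-145247120, minus strand): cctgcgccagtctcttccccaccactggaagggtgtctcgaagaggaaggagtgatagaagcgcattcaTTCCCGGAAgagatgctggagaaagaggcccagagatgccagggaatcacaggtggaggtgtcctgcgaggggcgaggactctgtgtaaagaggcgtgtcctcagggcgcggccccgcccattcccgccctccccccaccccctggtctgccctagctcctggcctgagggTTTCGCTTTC
The capitals in Fasl are an NFAT core match on the opposite strand, 227 to 222 bases upstream. Fas had a GAS match 93 to 85 bases upstream. Tnfrsf1b had a GAS match at 181 to 173 bases and an ISRE core match on the opposite strand that occupies the last 10 bases before the start. Tnfsf10, Casp8 and Cflar matched none of the 4 motifs. Of the windows not shown, Tnf held 2 NFAT core matches, Lta held 2 GAS matches and Tnfrsf1a held 1. A match describes the letters of a window and is not evidence of binding.

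The ligands were near 0 in cultured MC-38 cells except for Tnfsf10. Fasl, the Fas ligand of cytotoxic lymphocytes, was at 0.0187, 0.0243 and 0 FPKM in the 3 cultures. In the tumors without PD-1 blockade it was at 0.464, 0.800 and 0.206 FPKM at baseline, at 0.0507, 0.220, 0.826, 0.534 and 0.270 with isotype 1 dose, and at 0.389, 0.442, 0.483, 0.309 and 0.331 with isotype 2 doses. With PD-1 Ab 1 dose it was at 0.692, 1.07, 1.06, 1.38 and 0.822 FPKM, and with 2 doses at 2.73, 5.07, 3.20, 3.51 and 0.986. All 5 tumors with PD-1 Ab 2 doses lay above every isotype 2 doses tumor, and replicate 5 was the lowest of them. Outside the PD-1cKO and WT set, the order by median was PD-1 Ab 2 doses, PD-1 Ab 1 dose, baseline, isotype 2 doses, isotype 1 dose and culture, and only the cultures did not overlap the range of the group next to them.

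Tnfsf10 encodes TRAIL, the ligand of the receptor encoded by Tnfrsf10b. The cultures themselves held 0.832, 0.848 and 0.849 FPKM. Isotype 2 doses tumors were at 1.24, 2.64, 1.28, 2.58 and 1.40 FPKM and PD-1 Ab 2 doses tumors at 6.07, 8.64, 7.50, 6.57 and 4.29. The groups did not overlap, and neither did they at 1 dose, where isotype tumors spanned 1.45 to 3.84 FPKM and PD-1 Ab tumors 4.74 to 5.90.

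Tnf, the inflammatory cytokine of myeloid and T cells, stood at 0.0247, 0.0322 and 0.0458 FPKM in culture and at 4.45, 6.33 and 2.06 in baseline tumors. It was at 2.40, 5.38, 6.29, 4.08 and 4.79 FPKM with isotype 2 doses and at 7.06, 9.45, 9.90, 11.3 and 5.70 with PD-1 Ab 2 doses, and PD-1 Ab replicate 5 fell within the isotype range. Lta, which encodes the soluble ligand lymphotoxin-alpha, was the lowest of the ligands. It was listed at 0 in the 3 cultures and reached 0.282 FPKM at most with isotype 2 doses, against 0.324, 0.796, 0.475, 0.673 and 0.363 with PD-1 Ab 2 doses. Those 5 values all lay above the isotype range.

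**Figure D1:**
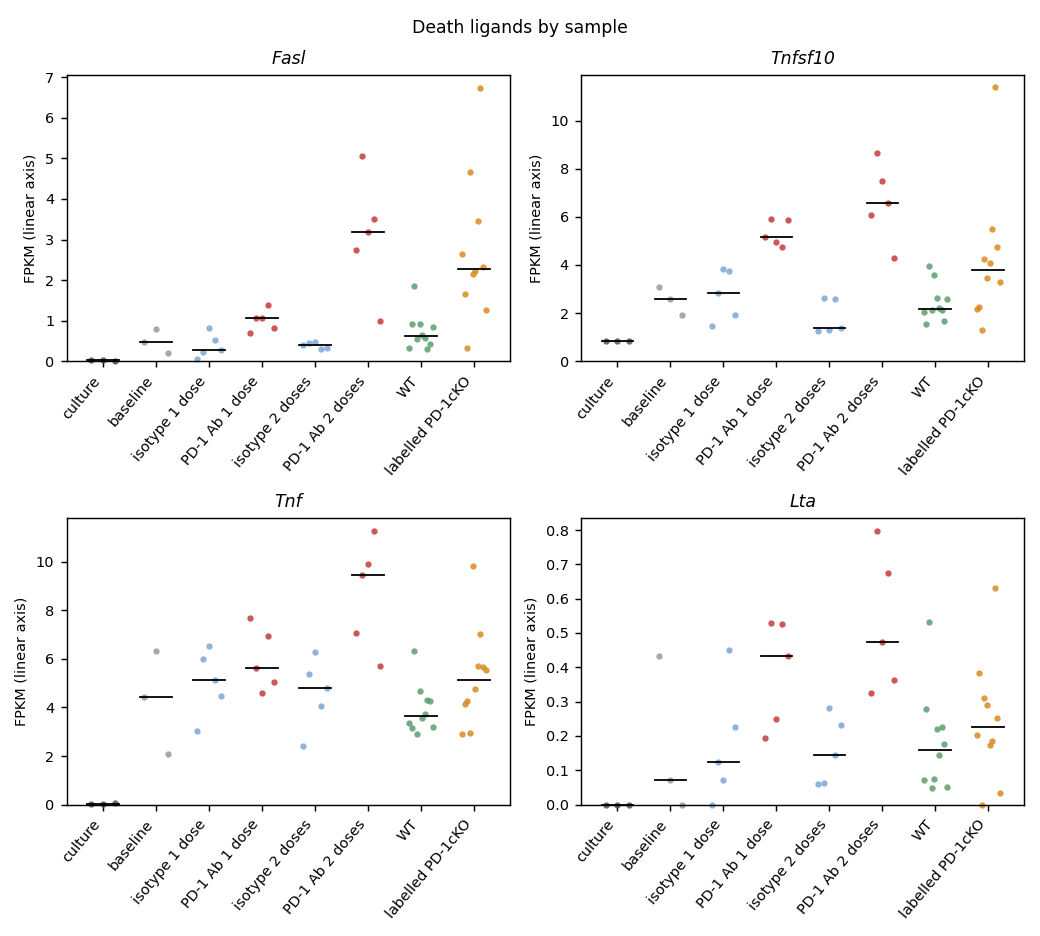
FPKM (linear axis from 0) of the 4 ligands in each sample of the 8 groups, with a point per sample and a bar at the group median. The PD-1cKO and WT set cannot be read on one scale with the others. Among the other groups the cultures have the lowest median for each ligand. PD-1 Ab 2 doses has the highest, 3.20 FPKM for Fasl and 6.57 for Tnfsf10.

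The receptors, unlike Fasl, Tnf and Lta, were present in MC-38 cells in culture. On the FPKM scale, which is per length, Tnfrsf1a was the most abundant receptor there. It encodes TNFR1, the TNF receptor with a death domain, and stood at 39.5, 40.1 and 38.1 FPKM. Tnfrsf10b, the TRAIL death receptor of the mouse, was at 14.3, 14.3 and 13.3 FPKM. Tnfrsf1b, which encodes TNFR2, a receptor without a death domain, was at 6.26, 6.37 and 5.51, and Fas, the receptor of Fas ligand, was lowest at 2.28, 2.78 and 2.95. Casp8 was at 23.4, 24.1 and 25.3 FPKM and Cflar, the caspase-like inhibitor c-FLIP, at 21.7, 22.5 and 21.98, so both genes acting below the receptors were also expressed in culture.

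**Figure D2:**
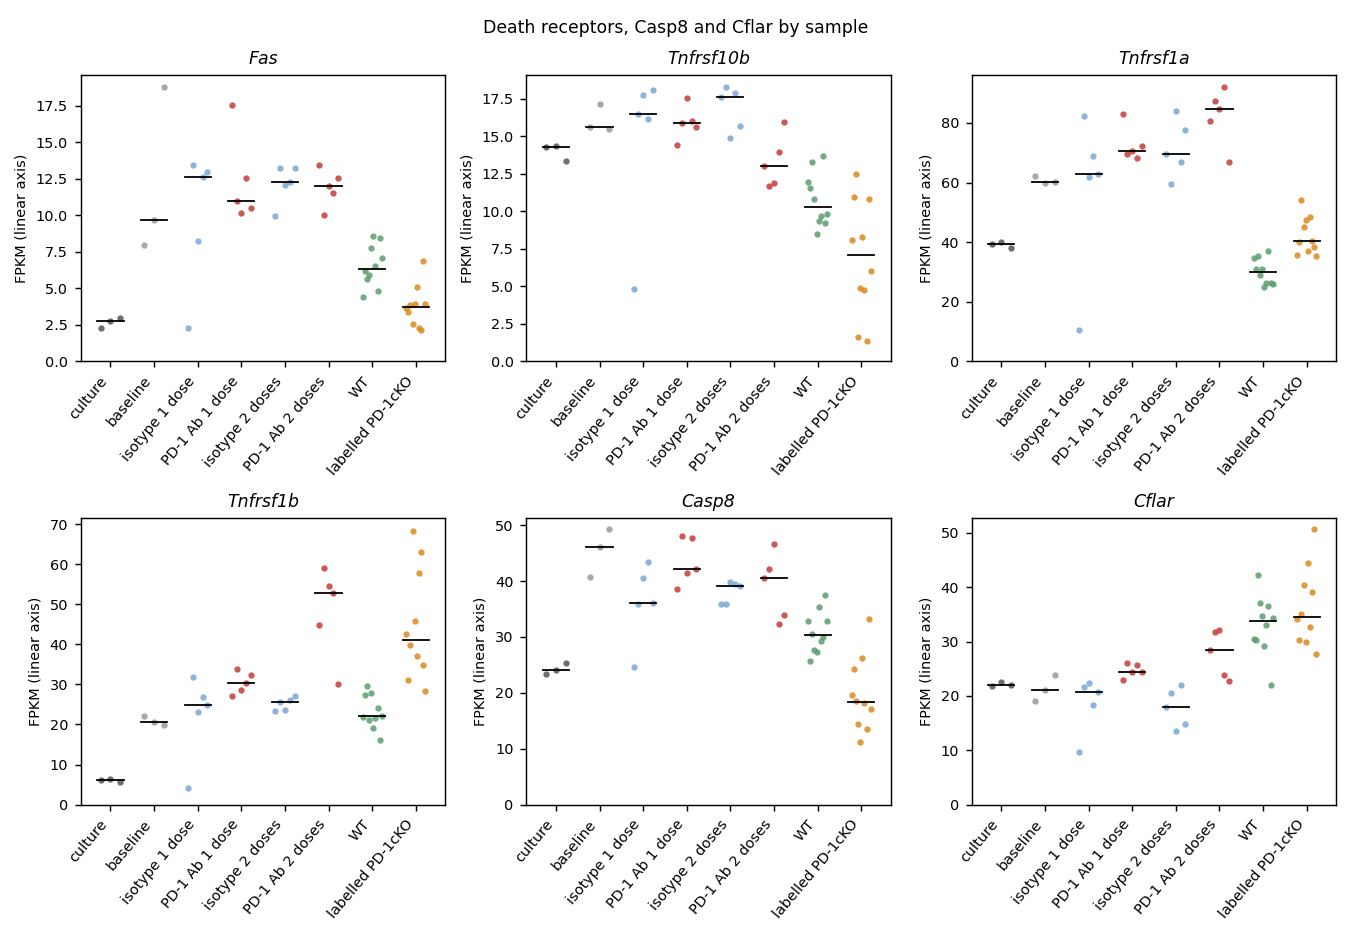
FPKM (linear axis from 0) of the 4 receptors, Casp8 and Cflar in each sample of the 8 groups, with a point per sample and a bar at the group median. For Fas the 3 cultures lie below every baseline and isotype 2 doses tumor, and for Tnfrsf10b and Tnfrsf1a the isotype 1 dose replicate 1, at 4.80 and 10.5 FPKM, lies far below its group.

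Baseline and isotype 2 doses tumors were each set against the cultures to ask which of these genes were higher in a tumor with its host cells than in the tumor cells alone. Both comparisons use the same 3 cultures. Fas was at 9.94, 13.2, 12.1, 12.3 and 13.2 FPKM in isotype 2 doses tumors and at 7.99, 9.65 and 18.8 at baseline, all above the cultures. Tnfrsf1b was at 23.4, 25.6, 23.6, 26.2 and 27.2 FPKM with isotype 2 doses and at 22.2, 20.6 and 19.8 at baseline, also without overlap. The tumors held more of both receptors than the cultures in each sample of these groups.

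Differences were tested with limma on log2(FPKM + 0.1) across all genes, with Benjamini-Hochberg adjustment and a limit of adjusted p of 0.01, and folds on this scale understate changes of low genes. Of 8 members tested in isotype 2 doses tumors against cultures, 5 rose, where 37.0% of 15199 genes were called and 20.2% were called higher. Tnf rose by 5.06 (log2, SE 0.30, adjusted p = 8.5e-07), Fas by 2.15 (SE 0.13, adjusted p = 1.3e-06) and Tnfrsf1b by 2.04 (SE 0.09, adjusted p = 1.2e-07). Smaller rises were those of Tnfrsf1a, 0.86 (SE 0.11), and Casp8, 0.65 (SE 0.07). Tnfsf10 (0.95, adjusted p = 0.021), Tnfrsf10b (0.27, adjusted p = 0.039) and Cflar (-0.34, adjusted p = 0.10) did not pass. Fasl and Lta were below the filter of a group mean of 0.5 FPKM and were not tested. Tnf, near 0 in culture, passed that filter only through the tumors, here and at baseline, so its count among the genes that rose is no support of its own.

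In baseline tumors 6 of 8 members rose, where 39.1% of 15217 genes were called and 20.8% were called higher. They were the same 5 genes, Tnf (4.89, SE 0.41), Fas (2.05, SE 0.29), Tnfrsf1b (1.77, SE 0.08), Casp8 (0.90, SE 0.08) and Tnfrsf1a (0.63, SE 0.05), and Tnfsf10 (1.45, SE 0.20, adjusted p = 0.00071). The member median was 0.90 against -0.11 over all genes with isotype 2 doses, and 1.17 against -0.04 at baseline. With upper-quartile scaling the share of called genes that were higher moved from 54.6% to 43.6% with isotype 2 doses and from 53.2% to 42.5% at baseline, and no called member changed direction. Macrophage and monocyte markers, 6 genes, summed to 2.57 to 3.18 FPKM in the cultures and 125 to 168 in isotype 2 doses tumors. The 3 leukocyte markers were called higher in both comparisons. They passed the filter only through the tumors, so these calls are no support of their own. Of 6 fibroblast markers 5 were called higher in each comparison. The other, Pdgfra, was at a mean of 37.0 FPKM in culture, 26.0 with isotype 2 doses and 22.2 at baseline. Fibroblast markers summed to 109 to 114 FPKM in the cultures, so that list is not particular to host cells. The part of host cells in the members' differences was not tested.

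Within a sample, the balance of the paired genes differed between culture and isotype 2 doses tumors. The log2 ratio of Cflar to Casp8 was -0.14 ± 0.06 (SD, n = 3) in culture and -1.12 ± 0.34 (SD, n = 5) with isotype 2 doses, and all 5 tumors lay below the cultures (exact permutation test, two-sided, p = 0.0179, the smallest this design allows, adjusted p = 0.0304 over 17 ratio tests). The log2 ratio of Tnfrsf1b to Tnfrsf1a went from -2.68 ± 0.07 (SD, n = 3) to -1.49 ± 0.23 (SD, n = 5), with all 5 tumors above the cultures (same exact p and adjusted p). On this ratio Cflar stood lower against Casp8, and Tnfrsf1b higher against Tnfrsf1a, in isotype 2 doses tumors than in culture. In the limma fits Casp8 rose by 0.65, while the difference of -0.34 for Cflar did not pass. The lower ratio was not seen in all tumors, as Cflar to Casp8 averaged 0.08 in WT and 0.94 in PD-1cKO tumors. Those groups were not tested against culture.

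PD-1 Ab was compared with isotype antibody at each dose. After 1 dose no member passed the limit among 9 tested, and 0 of 14556 genes did (0.0% called), with 895 genes and 2 members, Fasl and Tnfsf10, at an unadjusted p under 0.05. Fasl differed by 1.43 (SE 0.48, adjusted p = 0.55) and Tnfsf10 by 1.01 (SE 0.29, adjusted p = 0.39). Fasl passed the filter only through the PD-1 Ab group, so its place in these counts is no support of its own. Member differences were above 0 for 9 of 9, with a median of 0.52, but the median over all genes was 0.26 and fell to 0.01 with median-of-ratios scaling. Without the isotype replicate 1 with its high mitochondrial share, Fasl differed by 1.07 (adjusted p = 0.16), Tnfsf10 by 0.81 (adjusted p = 0.074) and Tnfrsf10b by -0.11 in place of 0.26.

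After 2 doses, Fasl, Tnfsf10 and Tnfrsf1b rose, 3 of 10 members, where 8.25% of 15062 genes were called and 6.69% were called higher. Fasl went from a mean of 0.391 ± 0.073 FPKM (SD, n = 5) with isotype to 3.10 ± 1.47 (SD, n = 5) with PD-1 Ab. The fitted difference was 2.55 (log2, SE 0.36, adjusted p = 0.0012), which is 5.87-fold on the log2(FPKM + 0.1) scale. Fasl passed the filter only through the PD-1 Ab group, as its isotype mean was below 0.5 FPKM, and it was also called with no filter. Tnfsf10 rose 3.58-fold, from 1.83 ± 0.72 (SD, n = 5) to 6.61 ± 1.63 FPKM (SD, n = 5), a difference of 1.84 (SE 0.26, adjusted p = 0.0012).

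Tnfrsf1b was at 44.8, 59.2, 54.5, 52.7 and 30.0 FPKM with PD-1 Ab 2 doses, each above the isotype range of 23.4 to 27.2. It rose 1.87-fold (0.90, SE 0.16, adjusted p = 0.0035), the one called receptor. Its call was lost without isotype replicate 1 or without PD-1 Ab replicate 1, 2 or 3, with adjusted p of 0.010 to 0.014, while without PD-1 Ab replicate 5 the difference was 1.06 (adjusted p = 3.7e-05).

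The other receptors and Casp8 did not pass the limit after 2 doses. Fas was at 13.4, 10.1, 12.0, 11.5 and 12.6 FPKM with PD-1 Ab, inside the isotype range but for 1 value (difference -0.03, SE 0.11). Tnfrsf1a differed by 0.20 (SE 0.12) and Casp8 by 0.03 (SE 0.11), with Casp8 at 40.5, 42.2, 46.7, 32.4 and 33.9 FPKM against 35.9 to 39.7. Tnfrsf10b was at 13.0, 11.7, 11.9, 14.0 and 15.9 against 14.9 to 18.3 FPKM, a difference of -0.35 (SE 0.11, adjusted p = 0.041).

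Cflar, Tnf and Lta came near the limit without passing it. Cflar was at 28.4, 31.7, 32.1, 23.8 and 22.8 FPKM with PD-1 Ab 2 doses and at 17.9, 20.6, 13.4, 21.9 and 14.9 with isotype, with no overlap and a difference of 0.65 (SE 0.16, adjusted p = 0.013). The differences were 0.93 (SE 0.26, adjusted p = 0.024) for Tnf and 1.32 (SE 0.39, adjusted p = 0.030) for Lta, which passed the filter only through the PD-1 Ab group. Without PD-1 Ab replicate 5, the tumor with the lowest summed T cell markers of its group, Tnf (1.07, adjusted p = 0.0091) and Cflar (0.72, adjusted p = 0.0062) also passed, 5 of 10 members in all. The count over all genes rose as well, from 1243 to 2571, so the gain was not particular to the members.

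The markers of host cells moved with these genes. All 9 T cell markers, 4 of 6 macrophage and monocyte markers and 2 of 4 NK cell markers were called higher after 2 doses, and macrophage and monocyte markers summed to 125 to 168 FPKM with isotype and 220 to 509 with PD-1 Ab. Of the other lists, 3 of 5 dendritic cell, 1 of 3 leukocyte and 1 of 4 endothelial markers were called higher. So were 1 of 4 skeletal muscle and 1 of 3 adipocyte markers. Neutrophil markers had 1 higher and 1 lower of 3 tested, and no B cell, fibroblast or epithelial marker was called. In the lists with calls, Cd5, Ncr1, Klrb1c, Klri2, Flt3 and the skeletal muscle markers passed the filter only through the PD-1 Ab group. Where called, these markers are no support of their own. Median differences were 2.90 for adipocyte, 2.30 for skeletal muscle, 1.56 for epithelial and 1.31 for endothelial markers, against 2.52 for T cell markers. Skeletal muscle markers summed to 0.379 to 0.577 FPKM with isotype and 1.53 to 58.9 with PD-1 Ab, and adipocyte markers to 1.24 to 14.7 and 4.95 to 118.2. The log2 ratio of Fasl to the mean of the T cell markers was -1.60 ± 0.47 (SD, n = 5) with isotype and -1.65 ± 0.13 (SD, n = 5) with PD-1 Ab (exact permutation test, p = 0.905), and the groups overlapped. With a pseudocount of 1 FPKM that difference was -0.57 (adjusted p = 0.015). The part of these cells and tissues in the members' changes was not tested.

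The effect of PD-1 Ab was not shown to differ between 2 doses and 1 dose for any member. The test of the difference called 0 of 10 members and 0 of 15289 genes (0.0%), with 1182 genes and 1 member, Tnfsf10, at an unadjusted p under 0.05. The differences of effect were 1.13 (SE 0.60) for Fasl and 0.83 (SE 0.40) for Tnfsf10. Sampling day differs with dose and cannot be told apart from it.

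The PD-1cKO and WT tumors showed ligand, receptor and caspase genes moving in both directions. Of 9 members tested 5 were called, where 21.3% of 15075 genes were called, 8.78% higher and 12.6% lower. Fasl, Tnfrsf1b and Tnfrsf1a rose, and Fas and Casp8 fell. Other scalings moved the share of called genes that were higher from 41.1% to between 44.9% and 58.9%, and the median over all genes from -0.20 to between -0.09 and -0.04, with all 5 calls and directions held under the 3 scalings.

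Fasl was at 0.319 FPKM at the lowest, 2.27 at the median and 6.73 at the highest in PD-1cKO tumors, and at 0.301, 0.610 and 1.87 in WT. In 7 of 10 PD-1cKO tumors it was above every WT tumor. It rose 3.07-fold (1.62, SE 0.38, adjusted p = 0.0037). Tnfsf10 (1.31, 3.77 and 11.4 FPKM against 1.56, 2.18 and 3.95) and Tnf (2.92, 5.14 and 9.84 against 2.89, 3.64 and 6.35) overlapped between the groups, with differences of 0.60 (adjusted p = 0.078) and 0.36 (adjusted p = 0.13). Lta, at 0.227 FPKM at the median against 0.160, was not tested.

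The TNF receptors were the members with the clearest separation among those higher. Tnfrsf1b spanned 28.4 to 68.4 FPKM with a median of 41.2 in PD-1cKO tumors, against 16.2 to 29.5 with a median of 22.1 in WT, and 9 of 10 tumors lay above every WT tumor (0.92, SE 0.16, adjusted p = 0.00073). Tnfrsf1a was at 35.2, 40.3 and 54.1 FPKM (lowest, median, highest) against 25.1, 29.9 and 36.9, with 8 of 10 above every WT tumor (0.49, SE 0.10, adjusted p = 0.0022).

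Fas and Casp8 were lower in PD-1cKO tumors. Fas was at 2.13, 3.74 and 6.87 FPKM against 4.38, 6.34 and 8.61 in WT, and fell by 0.83 (SE 0.19, adjusted p = 0.0027). Casp8 was at 11.2, 18.4 and 33.2 FPKM against 25.6, 30.3 and 37.5, and fell by 0.71 (SE 0.16, adjusted p = 0.0024). For each gene 8 of 10 PD-1cKO tumors lay below every WT tumor. Tnfrsf10b was at 1.33, 7.07 and 12.5 FPKM against 8.51, 10.3 and 13.7, with 7 of 10 below every WT tumor, and its difference of -0.91 did not pass (SE 0.33, adjusted p = 0.030). Cflar differed by 0.14 (SE 0.12, adjusted p = 0.36), at medians of 34.6 and 33.7 FPKM.

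Sample identifiers of this set fall into 3 runs of numbers that were split unevenly. The first run held 7 PD-1cKO tumors, the second 1 PD-1cKO and 9 WT tumors, and the third 2 PD-1cKO and 1 WT tumor, and the labels do not say what a run stands for. With the runs as a factor in limma, 0 of 9 members and 0 of 15075 genes were called, with 8 members and 6533 genes at an unadjusted p under 0.05. The differences were then 2.26 for Fasl (adjusted p = 0.030), 1.06 for Tnfrsf1b (0.026 adjusted p), -1.06 for Fas (0.028 adjusted p), -0.87 for Casp8 (0.032 adjusted p) and 0.45 for Tnfrsf1a (0.072 adjusted p), each in the same direction as before. In the second run the PD-1cKO tumor was outside the WT range for these 5 genes, with Fasl at 6.73 against 0.301 to 1.87 FPKM and Fas at 2.13 against 4.38 to 8.61. That tumor was PD-1cKO replicate 8, the highest of its group for Fasl and Tnfsf10 and the lowest for Fas and Tnfrsf10b. The fit with runs was not repeated without it. In the third run both PD-1cKO tumors were above the WT tumor for Fasl, Tnfrsf1b and Tnfrsf1a and below it for Fas, while Casp8 was at 17.1 and 33.2 FPKM against 32.8.

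Host cell markers moved with these genes too. The 9 T cell markers, all called higher, summed to 31.3 FPKM at the lowest, 58.4 at the median and 147 at the highest in PD-1cKO tumors, against 12.2, 16.9 and 46.9 in WT. Of macrophage and monocyte markers 3 of 6 were called higher, at sums of 244 to 756 FPKM against 163 to 331. Of fibroblast markers 3 of 6 were called higher, at sums of 2253 to 12399 against 1089 to 2295. Cultured MC-38 cells held fibroblast markers too, at sums of 109 to 114 FPKM. Also called higher were 2 of 3 neutrophil, 1 of 4 dendritic cell, 1 of 3 leukocyte and 1 of 4 endothelial markers tested. No NK cell, B cell, epithelial, skeletal muscle or adipocyte marker was called. The log2 ratio of Fasl to the T cell markers differed by -0.04 (permutation test, 100000 resamples, p = 0.887). With a pseudocount of 1 FPKM it differed by -0.29 (permutation test, adjusted p = 0.0059), and the part of host cells in the other changes was not tested.

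**Figure D3:**
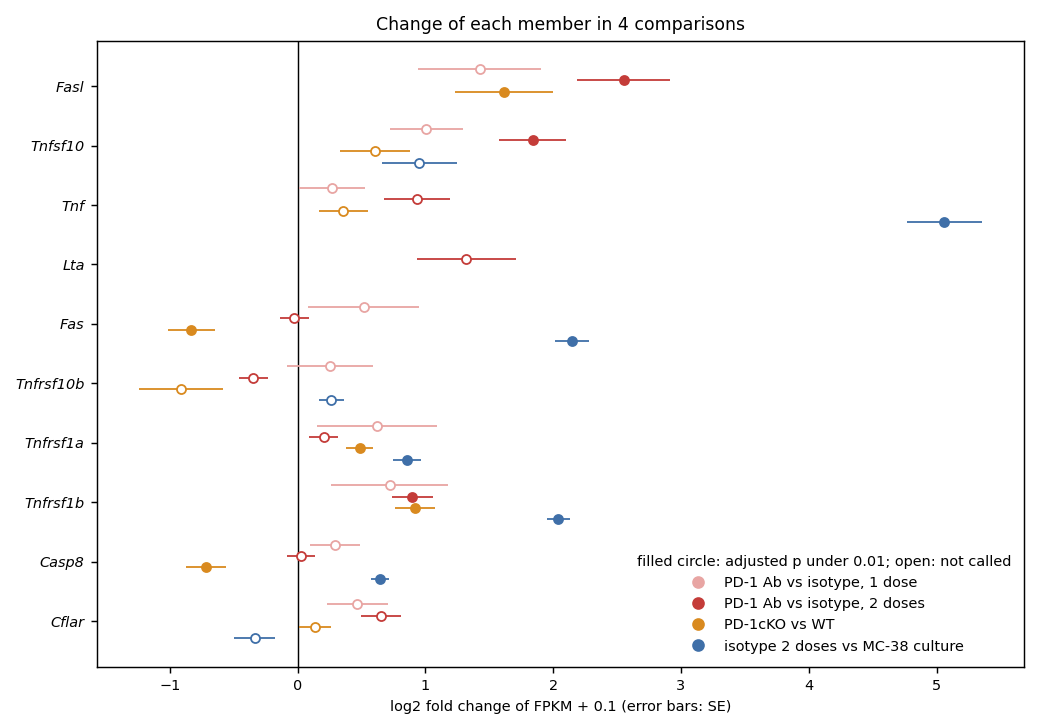
Difference in log2(FPKM + 0.1) with its standard error for each tested member in 4 comparisons, PD-1 Ab against isotype after 1 dose and after 2 doses, PD-1cKO against WT, and isotype 2 doses tumors against culture, with filled points for genes called at adjusted p of 0.01. Fasl (2.55 and 1.62) and Tnfrsf1b (0.90 and 0.92) are filled after 2 doses and for PD-1cKO, Fas and Casp8 are filled below 0 for PD-1cKO, and Tnf (5.06) lies farthest from 0 in tumors against culture.

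PD-1 Ab 2 doses and PD-1cKO were also compared directly by testing the difference of their effects. None of the 10 members was called, where 0.0975% of 16404 genes were, and 4 members and 2585 genes had an unadjusted p under 0.05. Casp8 had a difference of effects of 0.74 (SE 0.24, adjusted p = 0.15), Fas 0.80 (SE 0.28, adjusted p = 0.18), Tnfsf10 1.24 (SE 0.45, adjusted p = 0.20) and Cflar 0.51 (SE 0.21, adjusted p = 0.24). The lower Fas and Casp8 in PD-1cKO tumors were therefore not shown to be particular to that model. Treatment, tamoxifen, sampling day and library content all differ between the 2 sets.

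Ratios within a sample, with 0.1 FPKM added to each value, move little with its scaling where both genes are well above that pseudocount, and compare a ligand with its receptor, or a receptor with its partner. After PD-1 Ab 2 doses 4 of 5 ratios passed the ratio limit of an adjusted p of 0.05, each with the 5 PD-1 Ab tumors above the 5 isotype tumors (exact permutation test, two-sided, p = 0.00794, the smallest this design allows, adjusted p = 0.0193). Fasl to Fas rose from -4.65 ± 0.28 (SD, n = 5) to -2.07 ± 0.95 (SD, n = 5) on the log2 scale, and Tnfsf10 to Tnfrsf10b from -3.21 ± 0.44 to -1.03 ± 0.55 (SD, n = 5 each). Cflar to Casp8 rose by 0.62 and Tnfrsf1b to Tnfrsf1a by 0.69. After 1 dose only Tnfsf10 to Tnfrsf10b passed, with a difference of 0.75 (exact p = 0.0238, adjusted p = 0.0368) and 3 of 5 PD-1 Ab tumors above every isotype tumor. That call was lost with a pseudocount of 1 FPKM (adjusted p = 0.077, exact) and without PD-1 Ab replicate 1, 2 or 5 (adjusted p = 0.052 to 0.061, exact).

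In PD-1cKO tumors the same 4 ratios passed. No ratio test included the identifier runs, which split PD-1cKO and WT tumors unevenly, so these p-values do not account for them. Fasl to Fas was -0.67 ± 1.40 against -3.12 ± 0.68 in WT (SD, n = 10 each, permutation test, adjusted p = 0.0018), and 8 of 10 tumors lay above every WT tumor. Cflar to Casp8 was 0.94 ± 0.41 against 0.08 ± 0.38 (SD, n = 10 each, permutation test, adjusted p = 0.0010), with 9 of 10 above every WT tumor. Tnfsf10 to Tnfrsf10b differed by 1.52 (permutation test, adjusted p = 0.0235) and Tnfrsf1b to Tnfrsf1a by 0.43 (permutation test, adjusted p = 0.0193), each with 7 of 10 above every WT tumor. The ligands came from the whole tumor and the receptors from both tumor and host cells, so a ratio does not give ligand per receptor on MC-38 cells.

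**Figure D4:**
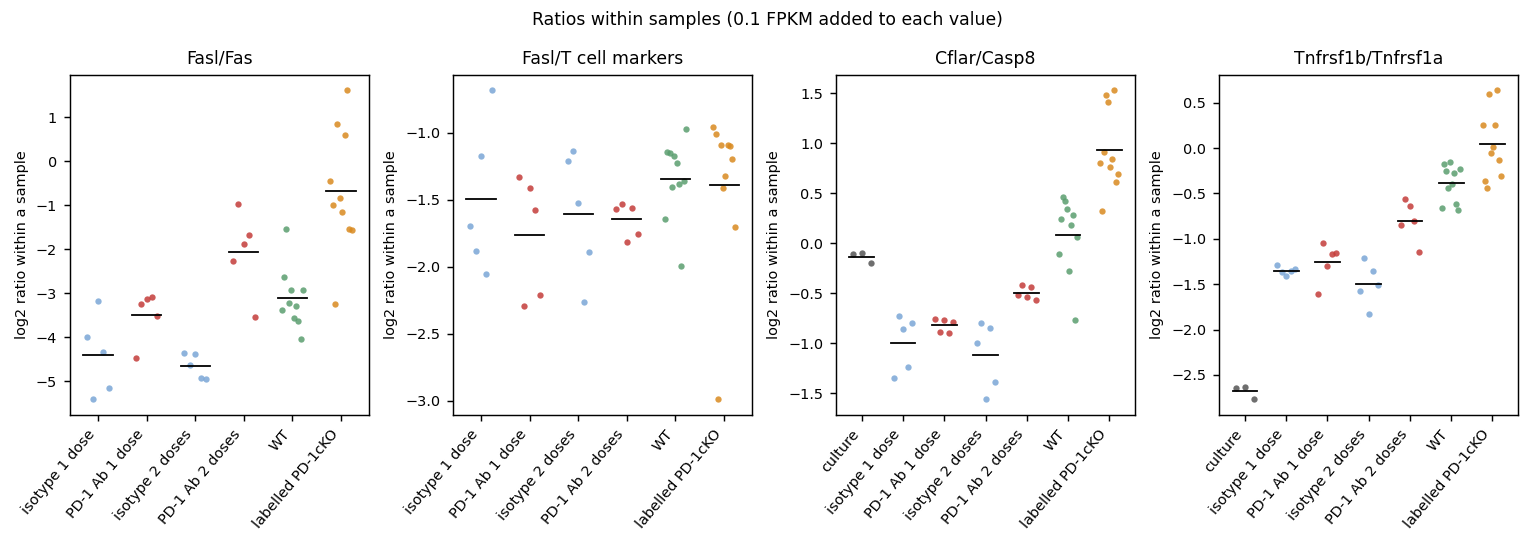
Log2 ratios within a sample of Fasl to Fas, Fasl to the T cell markers, Cflar to Casp8 and Tnfrsf1b to Tnfrsf1a in the antibody and PD-1cKO sets, and for the last pair of ratios also in culture, with a point per sample and a bar at the group mean. The 5 tumors with PD-1 Ab 2 doses lie above the 5 isotype 2 doses tumors in each panel but that of the T cell markers, where they overlap.

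Around the members, 61 further genes of the pathway in 6 lists were read from the same fits. After PD-1 Ab 2 doses 6 of 60 tested rose and none fell, where 8.25% of all genes were called and 6.69% were called higher. The median of the 60 was 0.18 against -0.04 over all genes. Ltb, the membrane partner of lymphotoxin-alpha, rose from 1.84 to 12.2 FPKM (2.45, SE 0.40, adjusted p = 0.0023), and Tnfsf14, which encodes the ligand LIGHT, rose by 1.50 (SE 0.30, adjusted p = 0.0058), having passed the filter only through the PD-1 Ab group. The others were Zbp1, a nucleic acid sensor of necroptosis (1.16, SE 0.19), Ripk3, the necroptosis kinase (0.80, SE 0.17), Rnf31, a linear ubiquitin ligase (0.54, SE 0.09), and Bcl2a1b, an antiapoptotic gene whose near-identical copies make its value uncertain (0.92, SE 0.16). None of 11 executioner and mitochondrial apoptosis genes and none of 8 NF-kappaB genes was called.

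In PD-1cKO tumors 7 of 59 rose and 3 fell, with a median of 0.01 against -0.20 over all genes, where 8.78% of genes were called higher and 12.6% lower. With the identifier runs as a factor in limma 0 of 59 were called, with 20 at an unadjusted p under 0.05. Ltb (1.82, SE 0.39, adjusted p = 0.0021) and Tnfsf14 (1.26, SE 0.32, adjusted p = 0.0050) rose here as well, with Tnfsf12, the ligand TWEAK (0.88, SE 0.18), Ripk3 (0.78, SE 0.12), the pore-forming gene Gsdmd (0.37, SE 0.10), Bax (0.42, SE 0.09) and Tnip1 (0.29, SE 0.08). Among those that fell, Cycs, which encodes cytochrome c, decreased by 0.84 (SE 0.20, adjusted p = 0.0041). Casp1, the inflammasome caspase, fell by 0.66 (SE 0.18, adjusted p = 0.0078), a call that was lost under each of the 3 scalings. After 1 dose 0 of 59 were called, with 5 at an unadjusted p under 0.05.

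Against cultures, 32 of 57 pathway genes rose and 1 fell with isotype 2 doses, beside 37.0% of all genes called and 20.2% called higher. At baseline 36 rose and 2 fell, beside 39.1% called and 20.8% called higher. With isotype 2 doses, 7 of 8 NF-kappaB genes rose, led by the inhibitors Nfkbie (1.47, SE 0.10) and Nfkbia (0.92, SE 0.10) and by Relb (1.04, SE 0.08). Among necroptosis and pyroptosis genes 5 of 7 rose, with Zbp1 going from 0.938 ± 0.318 FPKM (SD, n = 3) to 85.3 ± 24.3 (SD, n = 5) and Ripk3 from 0.261 ± 0.077 (SD, n = 3) to 6.21 ± 0.58 (SD, n = 5). Of 10 further ligands and receptors 7 rose, among them Tnfrsf26 (3.02, SE 0.24) and Tnfrsf21 (2.73, SE 0.16), and Ltb was listed at 0 in culture. Of 15 adaptors and ubiquitin enzymes 8 rose, among them Tnfaip3, which encodes the inhibitor A20 (1.54, SE 0.21), Traf1 (1.10, SE 0.09) and Tnip1 (1.03, SE 0.09). Of the executioner genes, Casp6 rose by 0.60 (SE 0.07). Of 6 antiapoptotic genes 3 rose, Mcl1 (0.44, SE 0.07) and the paralogs Bcl2a1b and Bcl2a1d, which were listed at 0 in culture and are uncertain as above. These paralogs, Ltb, Tnfrsf26 and Ripk3 passed the filter only through the tumors.

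The genes whose levels most resembled each member were taken over the 43 tumors after removal of group means, as Pearson r of log2(FPKM + 0.1) among 12902 genes. These are descriptions, since samples share library content, and r is given again without the isotype 1 dose replicate 1. The nearest gene to Fasl was Cd247, the T cell receptor zeta chain (r = 0.86, then 0.85), followed by Ubash3a and Gimap1. Tnfsf10 was also nearest to Cd247 (0.81, then 0.79), with Trbc1 and Sytl2. Tnf was nearest to Calhm6 (0.73, then 0.70), with Ly6i and the chemokine Ccl4. Prickle3 and Ly86 were among the genes most like Lta, which was at low levels.

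Receptors had other neighbours. Tnfrsf10b was nearest to the transcription factor Sox9 (0.97, then 0.97), Tfdp1 and the proliferation factor Foxm1. Tnfrsf1b was nearest to Tyk2 (0.97, then 0.92) and Cerk, and Casp8 to Snx6 (0.87, then 0.86), Wdr76 and AI662270. For Fas (Spag4, 0.84, then 0.70, with Mrgbp and Rps6kb2) and Tnfrsf1a (Pigs, 0.96, then 0.77, with Cln6 and Mfsd5) the likeness was weaker without the isotype 1 dose replicate 1. Cflar was nearest to Hivep2 (0.91, then 0.86), 0610030E20Rik, which shares 50-base stretches with it, and Adamts6. Among the members themselves r was 0.74 (then 0.72) between Fasl and Tnfsf10, 0.86 (then 0.52) between Tnfrsf1a and Tnfrsf1b, 0.60 (then 0.53) between Tnfrsf10b and Casp8 and -0.37 (then -0.56) between Tnfsf10 and Tnfrsf10b.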

How the data were processed

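Total RNA of cultures and tumors was sequenced by the authors as stranded ribosomal-depleted libraries with 50-base paired-end reads, and aligned with OSA in Array Studio to Mouse.B38 with Ensembl R86 gene models and up to 2 mismatches. The deposited values are FPKM per gene for 46 samples, and neither counts nor read totals per sample were used. The study gives mapped reads only as a range over all samples, so the depth of each sample is unknown and no counting interval is given. The study tested counts with DESeq2, which FPKM do not allow.

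Here, limma 3.58.1 in R 4.3.3 (lmFit, eBayes with a trend) was run on log2(FPKM + 0.1) over genes with a group mean of at least 0.5 FPKM, using only the groups compared (4 groups for differences of effects). Genes were called at a Benjamini-Hochberg adjusted p of 0.01 over all genes tested, with no fold limit. The fit was tested on simulated data. Within-sample ratios used exact permutation tests, or 100000 resamples for 10 against 10, adjusted over 17 tests. Tables and figures were made in Python 3.11.15 with pandas 2.3.3, numpy 2.4.6 and matplotlib 3.10.9.

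The 10 members and all gene lists were chosen with earlier results of these data known. Named beside the members are, per comparison and list, up to 3 called genes with the highest and up to 3 with the lowest differences, and the 3 most alike genes per member. Alternatives covered the pseudocount, filter, fold limit, 3 scalings, trend, fits over all groups, a replicate block, identifier runs and leaving out each replicate. No 2 samples held identical values. For 9 members RefSeq promoters were used. A few genes that the naming rule would include are not reported here.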

Additional observations from a re-analysis of the deposited data

Results flagged for a closer look

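In groups of 4 to 10 samples, the highest or lowest value was set against Dixon's critical value. Of 90 groups checked 8 held a value that far from the rest, and chance gives about 1 in 20, or 4.5. WT replicate 3 was high for 3 ligands. Its Fasl was 1.87 FPKM (other WT tumors 0.301 to 0.930), its Tnf 6.35 FPKM (others 2.89 to 4.68) and its Lta 0.531 FPKM (others 0.0486 to 0.280). PD-1cKO replicate 8 held Tnfsf10 at 11.4 FPKM, against 1.31 to 5.49 in the rest of its group. The isotype 1 dose replicate 1, the sample with 54.6% of its FPKM in mitochondrial genes, was low for Tnfrsf10b at 4.80 FPKM (others 16.2 to 18.1) and for Tnfrsf1a at 10.5 FPKM (others 61.9 to 82.3). PD-1 Ab 1 dose replicate 1 was high for Tnfrsf1a at 83.0 FPKM (others 68.2 to 72.2). The log2 ratio of Fasl to T cell markers was -2.99 in PD-1cKO replicate 3, against -1.70 to -0.96 in the other 9.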

How the results depend on the processing

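FPKM carry no depth, so no value here has a counting error, and each comparison rests on the spread between samples. Fits by limma were repeated with another pseudocount, filter, fold limit, scaling, trend or set of groups, with a replicate block, with identifier runs and without each replicate. Scaling to nuclear protein-coding genes and all counts of pathway genes were added after seeing the data. Apart from leaving out replicates, 613 repeated member values kept direction and side of the limit, 24 lost a call, 2 gained one and 3 turned direction without a call. The cause was not tested for the changes that follow, except that a 2-fold limit can only lower counts by construction.

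With calls limited to 2-fold, genes called went from 1243 to 799 after PD-1 Ab 2 doses, from 3217 to 1217 for PD-1cKO, from 5621 to 3231 for isotype 2 doses against culture and from 5944 to 2405 for baseline against culture. Members called went from 5 to 1 for PD-1cKO and from 5 to 3 for isotype 2 doses against culture, and pathway genes from 6 to 3, 10 to 3, 33 to 18 and 38 to 15 in the same 4 comparisons. Without the filter the counts were 578 genes after 2 doses, 1893 for PD-1cKO, 1 (in place of 0) for 2 doses minus 1 dose and 33 (in place of 16) for PD-1 Ab 2 doses minus PD-1cKO. In 1 fit of all tumor groups they were 9 genes after 1 dose (in place of 0), 818 after 2 doses, 3491 for isotype 2 doses and 1951 for baseline against culture, and 2 for PD-1 Ab minus PD-1cKO, and pathway genes were 2 after 2 doses, 21 and 16 against culture. Upper-quartile and protein-coding scaling each gave 2 genes after 1 dose. For PD-1 Ab minus PD-1cKO, median-of-ratios and protein-coding scaling each gave 9 genes and a pseudocount of 1 FPKM gave 43. With identifier runs as a factor, limma called 0 genes, 0 members and 0 pathway genes for PD-1cKO, with 6533, 8 and 20 at an unadjusted p under 0.05.

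Tnfrsf1b after 2 doses also lost its call without the filter (adjusted p = 0.011) and in 1 fit of all tumor groups (adjusted p = 0.050). In that fit Tnfrsf1a lost its call for PD-1cKO (adjusted p = 0.041) and in both culture comparisons, Casp8 in isotype 2 doses against culture (adjusted p = 0.017) and Tnfsf10 at baseline (adjusted p = 0.013), and Tnfrsf10b gained one for PD-1cKO (adjusted p = 0.0066). With median-of-ratios scaling Tnfrsf10b was called in isotype 2 doses against culture (adjusted p = 0.0088). Uncalled differences turned direction for Fas after 2 doses (0.025 with protein-coding scaling) and for Casp8 in 2 doses minus 1 dose (0.011 with median-of-ratios and 0.033 with protein-coding scaling). With a pseudocount of 1 FPKM, Tnfsf10 to Tnfrsf10b after 1 dose no longer passed (0.57, adjusted p = 0.077), and Fasl to T cell markers passed as lower after 2 doses (-0.57, adjusted p = 0.015) and for PD-1cKO (-0.29, adjusted p = 0.0059).

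Groups share replicate numbers, but these did not pair the samples, since the median correlation of deviations of same-numbered samples was 0.026 after 1 dose, -0.021 after 2 doses and -0.054 for isotype 2 doses against culture, with 1 of 10 pairs over 0.1 for PD-1cKO. With the replicate block, genes called were 342 after 2 doses, 1883 for PD-1cKO, 2733 for isotype 2 doses against culture and 1 for PD-1 Ab minus PD-1cKO, and pathway genes called were 2 after 2 doses and 19 for isotype 2 doses against culture. Under the block Tnfrsf1b after 2 doses (adjusted p = 0.014), Fasl for PD-1cKO (adjusted p = 0.019) and Casp8 in isotype 2 doses against culture (adjusted p = 0.011) were past the limit no longer. Ratios under the block used exact tests over pairs, in which 5 pairs cannot pass and 3 cannot either. Their values were 0.75 for Tnfsf10 to Tnfrsf10b after 1 dose, and after 2 doses 0.62 for Cflar to Casp8, 0.69 for Tnfrsf1b to Tnfrsf1a, 2.58 for Fasl to Fas and 2.19 for Tnfsf10 to Tnfrsf10b (adjusted p = 0.118 each, exact). Against culture they were -0.98 for Cflar to Casp8 and 1.14 for Tnfrsf1b to Tnfrsf1a (adjusted p = 0.354 each, exact). For PD-1cKO, blocked ratios were 0.43 for Tnfrsf1b to Tnfrsf1a and 1.52 for Tnfsf10 to Tnfrsf10b (adjusted p = 0.118 each) and 2.45 for Fasl to Fas (adjusted p = 0.066).

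Leaving out 1 replicate gave 0 to 14 genes called after 1 dose, the highest without isotype replicate 1, and 421 to 2571 after 2 doses, where the counts without PD-1 Ab replicates 1, 2, 3 and 5 were 528, 508, 421 and 2571 and those without isotype replicates 1, 2 and 5 were 594, 747 and 579. Members called then numbered 2 to 5 and pathway genes 2 to 10, with 3, 2 and 10 pathway genes without PD-1 Ab replicates 1, 3 and 5. Cflar also passed without isotype replicate 4 (0.73, adjusted p = 0.0098). For PD-1cKO the range was 1965 to 4866 genes, with 2043, 2007, 1965 and 4866 without PD-1cKO replicates 4, 5, 7 and 9 and 1999, 2116 and 2123 without WT replicates 6, 7 and 10. Against culture it was 3563 to 7095 with isotype 2 doses and 3813 to 7088 at baseline, with 3657, 3699 and 3563 without culture replicates 1, 2 and 3 for isotype 2 doses and 3862 and 3813 without culture replicates 1 and 3 at baseline, and Tnfrsf10b passed without isotype replicate 3 (0.31, adjusted p = 0.0078). For PD-1 Ab minus PD-1cKO it was 2 to 61 genes, lowest without PD-1 Ab replicate 3 and highest without its replicate 5, and 15 of the 30 counts lay more than 1.5 times from 16.

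Leaving out 1 replicate also turned the direction of uncalled member differences, which ranged from -0.097 to 0.033 for Fas and -0.038 to 0.094 for Casp8 after 2 doses, -0.11 to 0.37 for Tnfrsf10b after 1 dose, -0.14 to 0.022 for Cflar at baseline against culture, -0.62 to 0.12 for Tnfrsf1a and -0.018 to 0.70 for Tnfrsf1b in 2 doses minus 1 dose, and -0.10 to 0.14 for Tnfrsf1b in PD-1 Ab minus PD-1cKO. Among ratios after 1 dose, Tnfsf10 to Tnfrsf10b ranged from 0.54 to 0.91 and did not pass without PD-1 Ab replicate 1, 2 or 5, Fasl to Fas ranged from 0.66 to 1.22 and passed without isotype replicate 3, and Tnfrsf1b to Tnfrsf1a ranged from 0.046 to 0.19 and passed without PD-1 Ab replicate 1. Fasl to T cell markers ranged from -0.21 to 0.075 after 2 doses and from -0.11 to 0.14 for PD-1cKO, without passing. Against culture Cflar to Casp8 ranged from -1.06 to -0.87 and Tnfrsf1b to Tnfrsf1a from 1.115 to 1.27, and with 2 cultures left neither could pass (adjusted p = 0.0736, exact).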
